A study of Mus musculus with 18 samples.

Results

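The Th1 genes described here are 7 mouse genes of the interleukin-12, interleukin-18 and interferon gamma axis of T helper 1 (Th1) cells. They are the receptor genes Il12rb1, Il12rb2 and Il18r1, the signal transducer Stat4, the transcription factors Tbx21 and Eomes, and the cytokine gene Ifng. They were picked by gene symbol, with earlier results of these data known, and the entries of a symbol were added. All 7 were among the 22783 symbols of experiment 1 and among the 16639 symbols of experiment 2.

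Messenger RNA was sequenced from 18 cultures of mouse CD4+ T cells. The cells were sorted as naive cells from spleens of C57BL/6 mice, activated through CD3 and CD28, and collected on day 4. Experiment 1 asked what loss of the prolyl hydroxylase (PHD) oxygen sensors in T cells does to gene expression at 3 amounts of TGF-b, and experiment 2 asked the same of DMOG, a drug that inhibits these enzymes. In experiment 1, tKO cells carried floxed Egln1, Egln2 and Egln3 alleles and Cd4Cre, WT cells carried Cd4Cre, and cells of both received TGF-b at 0, 0.2 or 2 ng/ml. Each of these 6 groups has 2 libraries. In experiment 2, wildtype cells were cultured at 2 ng/ml TGF-b with 1 mM DMOG or with vehicle, with 3 libraries in each of the 2 groups. Cd4Cre is active in developing T cells, so the alleles were recombined before the cells were naive CD4+ cells, and tKO minus WT is not an acute loss. DMOG inhibits other 2-oxoglutarate-dependent dioxygenases besides the PHD proteins.

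As background, Th1 cells are the helper T cells that arm macrophages and cytotoxic cells through interferon gamma. Interleukin-12 binds a receptor made of the Il12rb1 and Il12rb2 products and activates STAT4, while T-bet, the product of Tbx21, drives Ifng and Il12rb2 and keeps the cells responsive to interleukin-12. TGF-b is known to oppose this program and to favour Foxp3+ regulatory T cells.

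Values are FPKM, which divides the fragments of a gene by its transcript length and by the mapped fragments of the library, as the authors deposited them. FPKM is scaled by length, so levels of different genes can be set side by side within an experiment. FPKM summed over a library to 548974 to 856147 (experiment 1) and 386268 to 443734 (experiment 2), and the number of reads behind them is not given in the sources used here. In experiment 1 the tKO sums differed by dose, with 711374 and 779265 at 0 and 726892 and 856147 at 0.2 ng/ml. At 2 ng/ml they were 548974 and 563272. The WT sums lay between 630548 and 676963. Egln3 ranged from 77.4 to 140 FPKM in tKO libraries, against 5.68 to 18.7 FPKM in WT libraries, and Egln1 from 92.8 to 122 against 20.4 to 44.3 FPKM. An FPKM value for the whole gene does not test whether the floxed exons were lost. The 7 T cell markers in the tables summed to 1900 to 2607 FPKM in tKO libraries, against 2381 to 2737 FPKM in WT libraries, and to 890 to 1227 FPKM with DMOG, against 1964 to 2380 FPKM with vehicle. The replicate 1 libraries of tKO carried 60.5 to 67.6 FPKM of Y-linked transcripts, against at most 0.008 FPKM in every other library of experiment 1. Male cells were thus seen in tKO libraries only, so sex is partly mixed with genotype in tKO minus WT.

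The start regions of Tbx21, Il12rb2 and Ifng are shown because these genes had the largest differences of the set between tKO and WT and between DMOG and vehicle. RefSeq windows of 250 bases before the transcription start, on the GRCm38.p6 build, were found for 6 of the 7 genes, 9 windows in all. The letters run 5′ to 3′ on the strand of the gene, and capitals mark matches of the searched motifs.
Tbx21, minus strand, chr11:97115332-97115581: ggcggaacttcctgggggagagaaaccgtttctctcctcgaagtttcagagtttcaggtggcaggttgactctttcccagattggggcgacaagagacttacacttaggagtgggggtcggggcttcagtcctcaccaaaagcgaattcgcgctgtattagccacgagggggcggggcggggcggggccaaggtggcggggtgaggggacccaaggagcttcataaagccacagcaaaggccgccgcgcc
Il12rb2, minus strand, chr6:67376189-67376438: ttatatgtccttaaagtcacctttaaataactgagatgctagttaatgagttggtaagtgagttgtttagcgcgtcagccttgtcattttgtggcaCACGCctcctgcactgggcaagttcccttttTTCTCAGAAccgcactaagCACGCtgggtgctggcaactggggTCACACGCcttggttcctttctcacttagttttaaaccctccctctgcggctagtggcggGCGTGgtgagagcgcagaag
Ifng, plus strand, chr10:118440796-118441045: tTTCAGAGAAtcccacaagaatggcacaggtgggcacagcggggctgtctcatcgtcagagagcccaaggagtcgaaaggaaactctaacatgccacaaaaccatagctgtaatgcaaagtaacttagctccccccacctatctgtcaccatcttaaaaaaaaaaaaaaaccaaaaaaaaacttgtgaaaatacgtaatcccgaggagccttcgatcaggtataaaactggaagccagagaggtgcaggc

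Both strands were searched for the HIF core in its forms ACGTG and GCGTG, a T-box core GTGTGA, and the STAT motif TTCNNNGAA. The Il12rb2 window held 4 matches of GCGTG, at 154, 104, 77 and 20 bases before the start. It also held a GTGTGA match at 80, which overlaps the GCGTG match at 77, and a STAT match at 123. Of 32851 windows of the same length, 28.2% held at least 1 GCGTG and 0.846% held 4 or more. The Ifng window held a STAT match at 249 bases before the start, and a start of Il18r1 held 2, at 219 and 152, against 7.0% of all windows with any. ACGTG was in 16.6% and GTGTGA in 12.3% of all windows. The windows of Tbx21, Eomes and Stat4 held no match. A match is a run of letters and not a measured binding site.

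Across the 3 doses, Tbx21, Ifng, Il12rb2 and Il12rb1 were higher in tKO than in WT cells, and Il18r1 was lower. The difference passed the test without TGF-b for Tbx21, Il12rb2 and Ifng, but each of these calls was lost without certain single libraries. At 0.2 and 2 ng/ml it passed for these genes and Il12rb1. The test of Ifng carries no weight, for the reason given below. Stat4 did not pass the test at any dose, and Eomes was too low to be tested. In bulk RNA, more cells that express a gene and more RNA per expressing cell cannot be told apart.

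Tbx21 lies at chr11:96959320-96976645 on mm9, the build of the deposited coordinates. T-bet is the defining transcription factor of Th1 cells. Without TGF-b, Tbx21 had 61.2 and 36.9 FPKM in tKO libraries, against 20.7 and 6.22 FPKM in WT libraries. At 0.2 ng/ml it had 38.0 and 33.4 FPKM in tKO, against 0.497 and 0.0151 FPKM in WT. At 2 ng/ml it had 28.4 and 15.6 FPKM in tKO, and was listed at 0 in both WT libraries. The genotypes did not overlap at any dose, and on the log2(FPKM + 1) scale the difference was larger at 0.2 and 2 ng/ml than without TGF-b. The tKO libraries at 2 ng/ml overlapped the WT libraries that had received no TGF-b.

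Ifng (chr10:117878102-117882948) encodes interferon gamma, the main cytokine of Th1 cells. Without TGF-b it had 18.8 and 32.0 FPKM in tKO libraries, against 2.47 and 0.969 FPKM in WT libraries. With 0.2 ng/ml it had 11.7 and 28.1 FPKM in tKO, and was listed at 0 in both WT libraries. With 2 ng/ml it had 32.6 and 2.30 FPKM in tKO, against 0.0695 FPKM in WT replicate 1 and a listing at 0 in replicate 2. All tKO libraries lay above the WT libraries of their dose, but the tKO libraries at 2 ng/ml were far apart. Ifng averaged 0.585 FPKM over the WT libraries and passed the filter on low values only through the tKO libraries, so a difference was bound to appear.

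Il12rb2 (chr6:67241315-67326323) encodes the signalling chain of the interleukin-12 receptor, which naive cells lack and Th1 cells gain. Without TGF-b it had 99.8 and 66.0 FPKM in tKO libraries, against 28.9 and 10.9 FPKM in WT libraries. The lower dose gave 45.8 and 44.9 FPKM in tKO, against 2.66 and 2.82 FPKM in WT. The higher dose gave 29.9 and 13.8 FPKM in tKO, against 1.89 and 4.07 FPKM in WT. The groups did not overlap at any dose. By mean, Il12rb2 was the most abundant of the 7 genes in tKO cells without TGF-b, at 82.9 FPKM, in the range of Il12rb1 and Stat4.

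Il12rb1 (chr8:73329670-73347436) encodes the chain that binds interleukin-12 and is shared with the interleukin-23 receptor. The values sum 2 entries. Without TGF-b it had 103 and 52.9 FPKM in tKO libraries, against 46.0 and 28.0 FPKM in WT libraries. Under 0.2 ng/ml it had 69.8 and 44.4 FPKM in tKO, against 13.4 and 10.9 FPKM in WT. Under 2 ng/ml it had 27.5 and 33.5 FPKM in tKO, against 6.79 and 8.27 FPKM in WT. The genotypes were separate at each dose, by a small gap without TGF-b.

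Stat4 (chr1:52065087-52170582) encodes the factor that interleukin-12 activates by phosphorylation, a step that RNA does not measure. Without TGF-b it had 85.0 and 55.3 FPKM in tKO libraries, against 50.9 and 43.8 FPKM in WT libraries. For 0.2 ng/ml the values were 36.8 and 29.9 FPKM in tKO, against 47.8 and 31.1 FPKM in WT. For 2 ng/ml the values were 29.6 and 31.1 FPKM in tKO, against 20.3 and 24.9 FPKM in WT. The genotypes overlapped at 0.2 ng/ml, and tKO libraries were the higher at the other doses.

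Il18r1 (chr1:40522396-40557699) encodes the chain that binds interleukin-18, a cytokine that adds to interleukin-12 in raising Ifng. Its values, the sum of 2 entries, ran the other way. Without TGF-b it had 1.51 and 4.25 FPKM in tKO libraries, against 6.87 and 5.69 FPKM in WT libraries. Where 0.2 ng/ml was added, it had 8.33 and 12.7 FPKM in tKO, against 13.4 and 12.4 FPKM in WT. Where 2 ng/ml was added, it had 15.8 and 13.8 FPKM in tKO, against 21.2 and 30.2 FPKM in WT. The genotypes overlapped at 0.2 ng/ml, and tKO libraries were the lower at the other doses.

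Eomes (chr9:118387306-118395250) encodes a T-box factor related to T-bet that is best known from CD8 T cells and natural killer cells. Without TGF-b it had 0.240 FPKM in tKO replicate 1 and was listed at 0 in replicate 2, against 2.86 and 1.61 FPKM in WT libraries. At 0.2 ng/ml Eomes had 0.624 and 2.11 FPKM in tKO, against 0.153 and 0.00953 FPKM in WT. At 2 ng/ml Eomes had 0.402 and 0.985 FPKM in tKO, against 0.277 and 0.0178 FPKM in WT. The tKO libraries were the lower without TGF-b and the higher at both doses of it, at levels near or under 1 FPKM in most libraries. Its mean over the 12 libraries was 0.774 FPKM, under the filter of 1 FPKM.

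**Figure D1:**
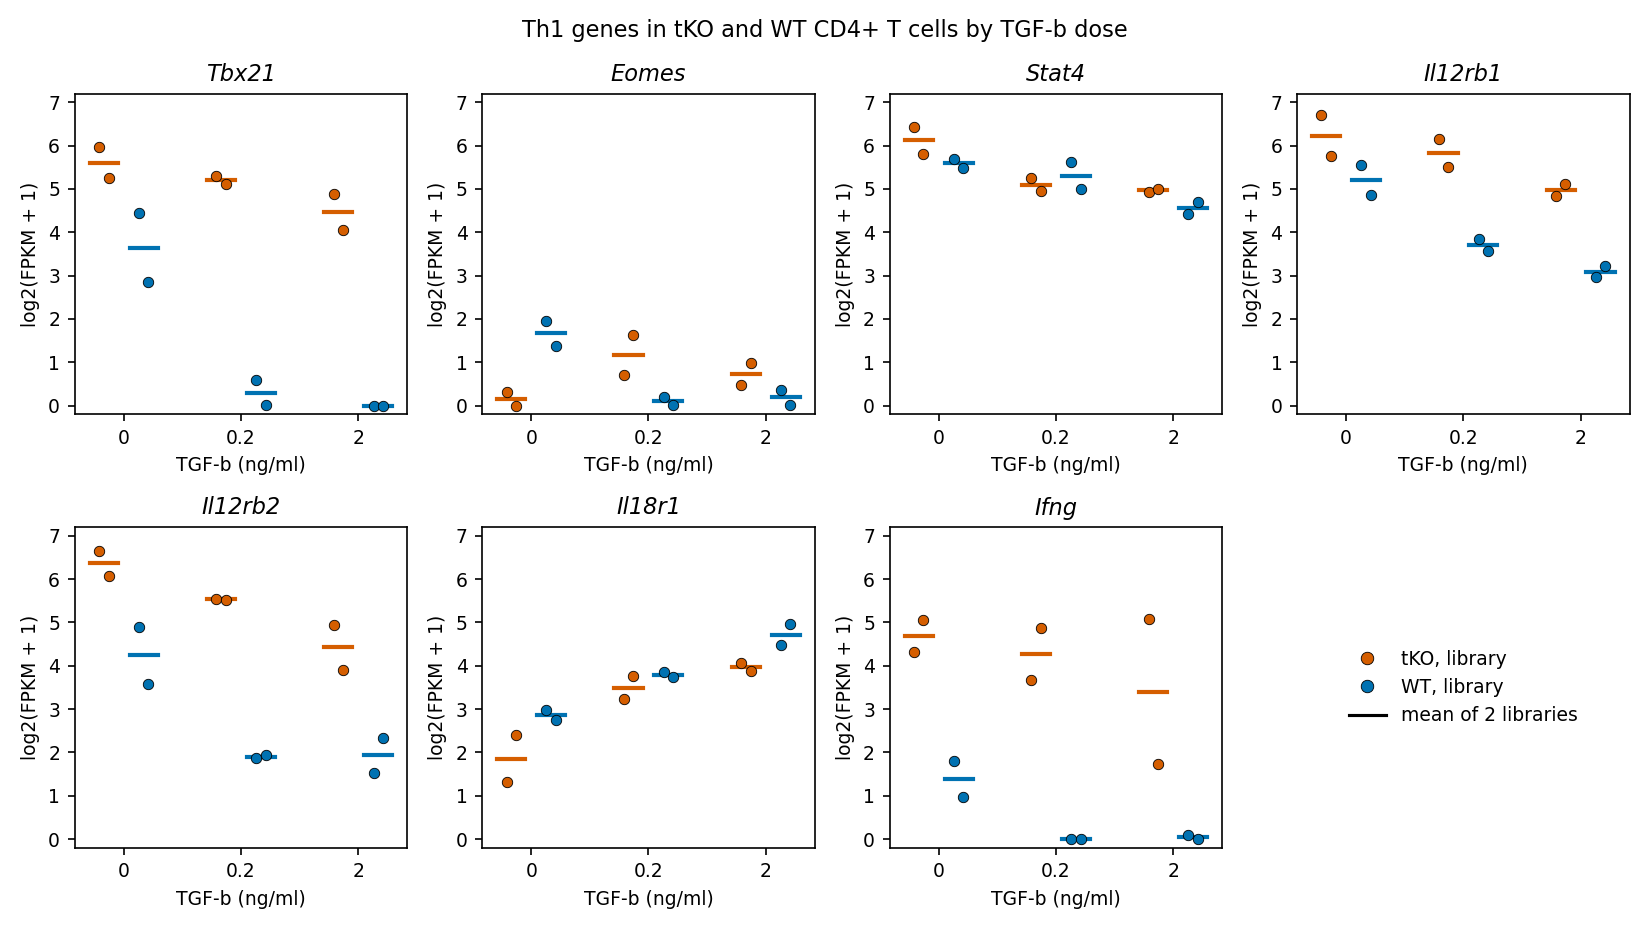
Expression of the 7 Th1 genes in experiment 1 as log2(FPKM + 1) against TGF-b dose in ng/ml, with tKO libraries in orange left of WT libraries in blue, a point for each library and a line at the mean of 2 libraries. Tbx21 is listed at 0 in both WT libraries at 2 ng/ml and at 28.4 and 15.6 FPKM in tKO, while Il18r1 climbs with dose in both genotypes.

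Limma was run on all genes averaging 1 FPKM or more across an experiment's libraries, on log2(FPKM + 1) values, and p-values were adjusted by Benjamini-Hochberg over all tested genes, two-sided, with a threshold of 0.05. Differences are on that scale, given ± SE, and understate changes of low genes. In experiment 1 the spread of a gene was estimated once over all 12 libraries, so its SE is the same at every dose. That SE is not the spread of the compared libraries alone. Nothing in the labels says that replicates came from separate animals, though the tKO replicates differ in Y-linked transcripts. The p-values therefore measure the spread between these libraries. Averaged over the 3 doses, Tbx21 was higher in tKO by 3.77 ± 0.26 (adjusted p = 1.84e-07), Ifng by 3.63 ± 0.44 (adjusted p = 3.85e-05), Il12rb2 by 2.75 ± 0.25 (adjusted p = 2.28e-06) and Il12rb1 by 1.67 ± 0.19 (adjusted p = 1.66e-05). Stat4 differed by 0.24 ± 0.14 (adjusted p = 0.237). Il18r1 differed by -0.68 ± 0.19 (adjusted p = 0.0183). Of the 7 genes, 4 rose, 1 fell, 1 did not pass and 1 was not tested, against 27.2% of 10354 genes called, 13.9% higher and 13.3% lower. Ifng is among the 4 and passed the filter only through the tKO libraries. Its adjusted p for tKO minus WT, here and at each dose below, therefore carries no weight. The same holds for its place in the counts and in the median. The median difference of the 6 tested genes was 2.21, against -0.02 over all genes. The 6 libraries of a genotype come from 2 labelled series and may not be independent. The Il18r1 call was lost without WT replicate 1 at 0 ng/ml (adjusted p = 0.0516), WT replicate 1 at 0.2 ng/ml (0.0511), WT replicate 2 at 2 ng/ml (0.0617) or tKO replicate 2 at 2 ng/ml (0.0591), and without the filter on low values (0.0631). Without the 3 tKO libraries that carry Y-linked transcripts, the differences were 3.48 for Tbx21, 3.40 for Ifng, 2.47 for Il12rb2 and 1.46 for Il12rb1, with adjusted p up to 0.00113, and -0.44 for Il18r1 (adjusted p = 0.0915). Without WT replicate 1 or 2 at every dose, the adjusted p of Il18r1 was 0.126 and 0.173.

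By dose, 3 of the 7 genes were higher in tKO without TGF-b, against 9.64% of all genes called, 5.34% higher and 4.30% lower. These were Tbx21 by 1.96 ± 0.45 (adjusted p = 0.0130), Il12rb2 by 2.12 ± 0.43 (0.00576) and Ifng by 3.29 ± 0.77 (0.0143). Il12rb1 differed by 1.02 ± 0.32 (adjusted p = 0.0672) and Il18r1 by -1.00 ± 0.33 (0.0840). The calls without TGF-b did not hold without single libraries. Adjusted p was 0.103 for Tbx21 and 0.0580 for Il12rb2 without tKO replicate 1, 0.165, 0.0835 and 0.126 for Tbx21, Il12rb2 and Ifng without WT replicate 2, and 0.126 for Ifng without tKO replicate 2. With no filter on low values it was 0.0874, 0.0585 and 0.111 for the same 3 genes, and with a pseudocount of 0.1 FPKM it was 0.0925 for Tbx21. Leaving out tKO replicate 2 instead brought Il12rb1 (1.50, adjusted p = 0.0217) and Il18r1 (-1.53, adjusted p = 0.0163) past the threshold. Il12rb1 also passed without tKO replicate 1 or 2 at 0.2 ng/ml, with adjusted p of 0.0462 and 0.0458.

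At 0.2 ng/ml, 4 of the 7 genes were higher in tKO, against 15.5% of all genes called, 9.11% higher and 6.38% lower. The differences were 4.89 ± 0.45 for Tbx21 (adjusted p = 1.02e-05), 4.26 ± 0.77 for Ifng (0.00219), 3.63 ± 0.43 for Il12rb2 (7.96e-05) and 2.12 ± 0.32 for Il12rb1 (0.000624). The calls of Tbx21, Il12rb2 and Il12rb1 held without any single library and without the 3 tKO replicate 1 libraries. The Ifng call was lost without WT replicate 1 at every dose (adjusted p = 0.0749) or WT replicate 2 at every dose (0.0762). Mean Il12rb2 was 16.6-fold and mean Il12rb1 4.71-fold the WT level.

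At the higher dose of 2 ng/ml, 4 of the 7 genes were higher, against 16.0% of all genes called, 7.82% higher and 8.16% lower. The differences were 4.46 ± 0.45 for Tbx21 (adjusted p = 2.98e-05), 3.35 ± 0.77 for Ifng (0.00976), 2.48 ± 0.43 for Il12rb2 (0.00165) and 1.88 ± 0.32 for Il12rb1 (0.00163). Mean Il12rb2 was 7.34-fold and mean Il12rb1 4.05-fold the WT level. The Ifng difference was 1.68 without tKO replicate 1 (adjusted p = 0.0905) and 5.02 without tKO replicate 2, and the call was also lost without either WT library, with adjusted p of 0.0526 and 0.0666, or with no filter on low values (0.0782). Without tKO replicate 1 at every dose, the adjusted p of Il12rb2 at 2 ng/ml was 0.0556, without WT replicate 1 at every dose it was 0.0508 for Il12rb1 and 0.133 for Ifng, and without WT replicate 2 at every dose it was 0.162 for Ifng.

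Eomes could be tested only with no filter on low values, over 15833 genes. Then it was lower in tKO without TGF-b by 1.51 ± 0.34 (difference -1.51, adjusted p = 0.0450), and the differences at 0.2 and 2 ng/ml, 1.06 and 0.55, did not pass.

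Markers of other lymphocytes that express Tbx21 or Ifng were read in the same libraries. The 5 natural killer cell markers in the table summed to between 1.99 and 8.94 FPKM in tKO libraries, against 0.0533 to 2.41 FPKM in WT libraries. Ncr1, the defining receptor of natural killer cells, was listed at 0 in all 12 libraries, and the highest marker in tKO libraries was Klrk1. Klre1 and Klri2 were above 0 in tKO at 0.2 and at 2 ng/ml, in at least 1 library each, and Klre1 was listed at 0 in every WT library. Klrb1c was listed at 0 in the tKO libraries at 0 and 0.2 ng/ml. In WT libraries at 0.2 and 2 ng/ml Klrk1 was listed at 0 and the highest was Klrb1c. The 2 CD8 markers summed to between 7.49 and 14.6 FPKM in tKO, against 4.02 to 8.84 FPKM in WT. Zbtb16, the defining factor of natural killer T cells, was listed at 0 in the same 12. The 4 dendritic cell markers in the table summed to between 2.70 and 6.39 FPKM in tKO, against 0.512 to 3.25 FPKM in WT, and the 5 myeloid markers to at most 1.35 FPKM in tKO, against 0.515 to 4.46 FPKM in WT. Zbtb46 was the highest dendritic cell marker in every group. Flt3, Siglech and Itgax were listed at 0 in tKO at 0 and 0.2 ng/ml. The 5 B cell markers summed to between 15.4 and 83.0 FPKM in tKO, against 14.4 to 60.5 FPKM in WT. Without TGF-b they summed to 39.6 and 83.0 FPKM in tKO, against 14.4 and 39.3 FPKM in WT. At 0.2 ng/ml they summed to 15.4 and 22.6 FPKM in tKO, against 34.4 and 60.5 FPKM in WT. The part of these cells in the tKO minus WT differences was not tested.

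In WT cells, Tbx21, Il12rb2 and Il12rb1 fell at both doses of TGF-b, and at 2 ng/ml Stat4 fell and Il18r1 rose. In tKO cells, Il12rb2, Il12rb1 and Stat4 also fell at 2 ng/ml and Il18r1 rose, and Tbx21 did not pass the test. The dose comparisons of a genotype share their libraries, so their values are given side by side and not as independent results.

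In WT cells at 0.2 minus 0 ng/ml, 3 of the 7 genes were lower, against 1.59% of all genes called, 0.918% higher and 0.676% lower. Tbx21 fell by 3.34 ± 0.45 (adjusted p = 0.00222), Il12rb2 fell by 2.34 ± 0.43 (0.0148) and Il12rb1 fell by 1.50 ± 0.32 (0.0339). Ifng differed by -1.39 ± 0.77 (adjusted p = 0.562), Stat4 by -0.28 ± 0.25 (0.759) and Il18r1 by 0.93 ± 0.33 (0.253). The Il12rb2 call was lost without WT replicate 1 at 0 ng/ml (adjusted p = 0.183) or without WT replicate 1 or 2 at 0.2 ng/ml (0.117 and 0.126). The Il12rb1 call held without 5 of the 12 libraries, which were WT replicate 2 at 0 ng/ml and the tKO libraries at 0 and 0.2 ng/ml, and had adjusted p between 0.0536 and 0.367 without each of the other 7. With no filter on low values none of the 3 passed, with adjusted p of 0.0547, 0.142 and 0.180 for Tbx21, Il12rb2 and Il12rb1. Tbx21 also missed the threshold without WT replicate 1 at every dose (adjusted p = 0.171).

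For 2 minus 0 ng/ml in WT cells, 4 of the 7 genes were lower and 1 was higher, against 15.7% of all genes called, 7.79% higher and 7.91% lower. Tbx21 fell by 3.65 ± 0.45 (adjusted p = 0.000180), Il12rb2 fell by 2.30 ± 0.43 (0.00297), Il12rb1 fell by 2.12 ± 0.32 (0.000794) and Stat4 fell by 1.04 ± 0.25 (0.0129). Il18r1 rose by 1.86 ± 0.33 (adjusted p = 0.00236), a 4.09-fold higher mean at 2 ng/ml than without TGF-b. Ifng differed by -1.34 ± 0.77 (adjusted p = 0.269), and by -3.67 (adjusted p = 0.0222) with a pseudocount of 0.1 FPKM. The Stat4 call was lost without WT replicate 1 at 0 or at 2 ng/ml, with adjusted p of 0.106 and 0.0884, and with no filter on low values (0.0506). Without WT replicate 1 at every dose, Tbx21 alone passed, and without WT replicate 2 at every dose, adjusted p was 0.143 for Stat4 and 0.248 for Il18r1. Between 2 and 0.2 ng/ml in WT cells, limma called 0 of the 7 genes, against 0.435% of all genes, 0.270% higher and 0.164% lower, and 2 had an unadjusted p under 0.05.

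In tKO cells at 0.2 minus 0 ng/ml, 1 gene was lower and 1 higher, against 2.48% of all genes called, 1.70% higher and 0.782% lower. Stat4 fell by 1.03 ± 0.25 (adjusted p = 0.0467), and Il18r1 rose by 1.64 ± 0.33 (0.0213). Tbx21 differed by -0.41 ± 0.45 (adjusted p = 0.730) and Il12rb2 by -0.83 ± 0.43 (0.382). The Stat4 call held only without tKO replicate 2 at 0 ng/ml, tKO replicate 1 at 0.2 ng/ml or WT replicate 2 at 0.2 ng/ml, with adjusted p between 0.0503 and 0.288 without each of the other 9 libraries, and it was lost with a pseudocount of 0.1 FPKM (0.0533) or quantile normalization (0.0664). The Il18r1 call was lost without tKO replicate 1 at 0 ng/ml (adjusted p = 0.145) or tKO replicate 2 at 0.2 ng/ml (0.134), and with no filter on low values neither gene passed, with adjusted p of 0.0884 for Il18r1 and 0.131 for Stat4.

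In tKO cells at 2 minus 0 ng/ml, 3 of the 7 genes were lower and 1 was higher, against 18.0% of all genes called, 7.59% higher and 10.4% lower. Il12rb2 fell by 1.94 ± 0.43 (adjusted p = 0.00790), Il12rb1 fell by 1.26 ± 0.32 (0.0168) and Stat4 fell by 1.15 ± 0.25 (0.00701), while Il18r1 rose by 2.12 ± 0.33 (0.00113). Tbx21 differed by -1.14 ± 0.45 (adjusted p = 0.0975) and Ifng by -1.28 ± 0.77 (0.281). Il18r1 had a 5.14-fold higher mean at 2 ng/ml than without TGF-b, and its call held without any single library. Without tKO replicate 1 at 0 ng/ml the adjusted p was 0.0509 for Il12rb2, 0.133 for Il12rb1 and 0.0531 for Stat4; without tKO replicate 2 at 2 ng/ml it was 0.116, 0.0765 and 0.0567, and without tKO replicate 1 at 2 ng/ml it was 0.134 for Il12rb1 and 0.0642 for Stat4. Tbx21 passed without WT replicate 1 or 2 at 0 ng/ml (adjusted p = 0.0428 and 0.0408), Ifng passed without tKO replicate 1 at 2 ng/ml (-2.95, adjusted p = 0.0104), and with no filter on low values Il12rb1 (0.0791) and Il12rb2 (0.0570) did not. Without the 3 tKO replicate 1 libraries, the Il18r1 call held, and the adjusted p was 0.0525 for Il12rb2, 0.270 for Il12rb1 and 0.127 for Stat4.

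Between 2 and 0.2 ng/ml in tKO cells, limma called 0 of the 7 genes, against 9.57% of all genes, 2.13% higher and 7.44% lower, and 2 had an unadjusted p under 0.05. The genes called over the whole table were 221 higher and 770 lower, and 340 higher and 501 lower after quantile normalization. Ifng passed without tKO replicate 1 at 2 ng/ml (-2.54, adjusted p = 0.0435).

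Whether the TGF-b response itself differed between the genotypes was tested as the difference of the 2 minus 0 ng/ml effects, tKO minus WT. Limma called 0 of the 7 genes, against 2.97% of all genes, 1.55% higher and 1.43% lower, and 1 had an unadjusted p under 0.05. That gene was Tbx21, with a difference of 2.51 ± 0.63 and an adjusted p of 0.0521. It passed with a pseudocount of 0.1 FPKM (5.67, adjusted p = 0.0114), after quantile normalization (2.49, 0.0367), and without tKO replicate 1 at 0 ng/ml (2.86, 0.0467), tKO replicate 1 at 0.2 ng/ml (0.0408), tKO replicate 2 at 0.2 ng/ml (0.0408) or WT replicate 2 at 0 ng/ml (3.30, 0.0115). Il12rb2 differed by 0.36 ± 0.60 (adjusted p = 0.784) and Ifng by 0.06 ± 1.09 (0.985), so the SE of Ifng is too large to tell the responses apart.

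In order of mean level, tKO cells without TGF-b had Il12rb2 (82.9 FPKM), Il12rb1 (78.1), Stat4 (70.1) and Tbx21 (49.0), whose neighbours overlapped, then Ifng (25.4), Il18r1 (2.88) and Eomes (0.120), each apart from the gene above it. At 2 ng/ml, tKO cells had Il12rb1 (30.5 FPKM) and Stat4 (30.4), which overlapped, and then Tbx21 (22.0), Il12rb2 (21.9), Ifng (17.4) and Il18r1 (14.8), of which each overlapped the next. WT cells without TGF-b had Stat4 (47.3 FPKM), Il12rb1 (37.0), Il12rb2 (19.9), Tbx21 (13.5) and Il18r1 (6.28), of which each overlapped the next, and then Eomes (2.24) and Ifng (1.72), which overlapped each other. WT cells at 2 ng/ml had Il18r1 (25.7 FPKM) and Stat4 (22.6), which overlapped, then Il12rb1 (7.53) and Il12rb2 (2.98), each apart from the gene above it, and the other 3 genes at or under 0.148 FPKM. By mean, Il18r1 was thus the lowest of the 3 receptor genes in tKO cells at each dose, and in WT cells it was the lowest without TGF-b and the highest at 2 ng/ml.

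With DMOG, Tbx21, Ifng and Il12rb2 stood above 25 FPKM in each library, against under 1 FPKM in each vehicle library. Il12rb1 and Stat4 also rose with DMOG, and Il18r1 fell. Tbx21 had 53.5, 53.5 and 57.0 FPKM with DMOG, against 0.201, 0.145 and 0.0895 FPKM with vehicle. Ifng had 44.5, 43.5 and 34.9 FPKM with DMOG, against 0.134, 0.118 and 0.0688 FPKM with vehicle. Il12rb2 had 49.2, 25.1 and 28.7 FPKM with DMOG, against 0.484, 0.203 and 0.211 FPKM with vehicle. These genes were near background with vehicle, and the groups did not overlap. They passed the filter on low values only through the DMOG libraries, so a difference was bound to appear.

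Il12rb1 had 44.4, 25.6 and 26.8 FPKM with DMOG, against 5.58, 7.28 and 5.69 FPKM with vehicle. Stat4 had 14.4, 11.7 and 12.0 FPKM with DMOG, against 6.40, 5.05 and 5.57 FPKM with vehicle. Il18r1, the sum of 3 entries that were each lower with DMOG, averaged 10.5 ± 2.23 FPKM with DMOG and 70.7 ± 4.66 FPKM with vehicle (SD, n = 3 each). Il18r1 was the most abundant of the 7 genes with vehicle, and with DMOG its mean was above that of Eomes alone. Eomes, the sum of 2 entries, averaged 0.478 ± 0.0922 FPKM with DMOG and 0.0664 ± 0.0182 FPKM with vehicle, and did not pass the filter.

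**Figure D2:**
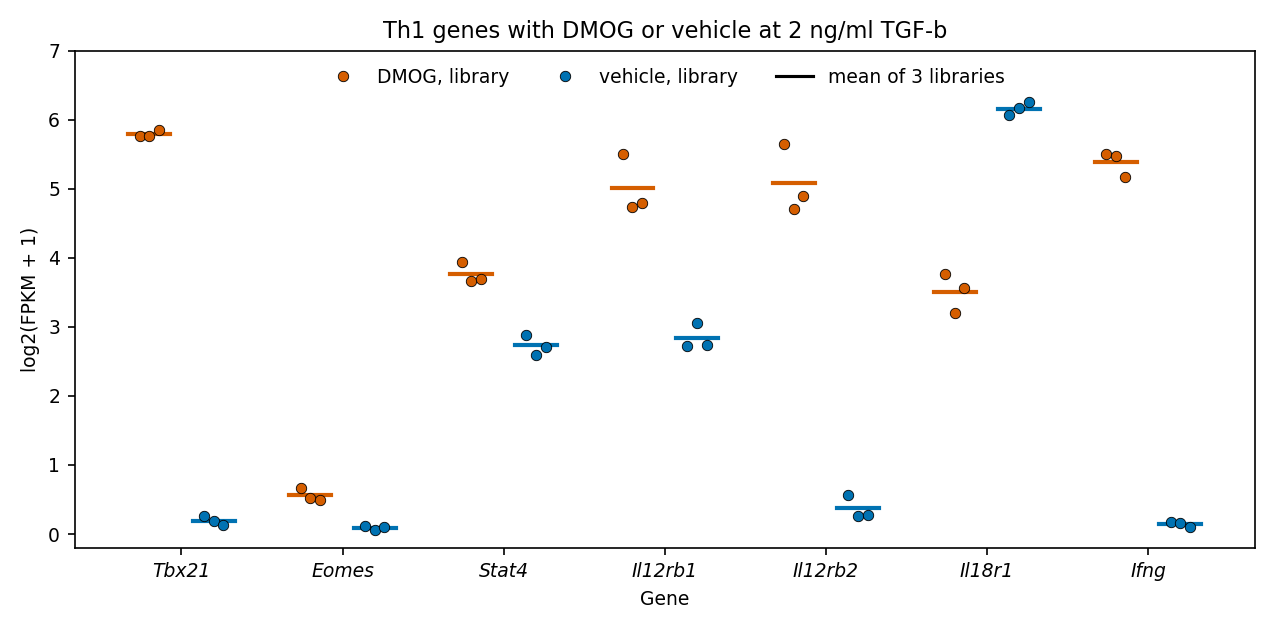
Expression of the 7 Th1 genes in experiment 2 as log2(FPKM + 1), with DMOG libraries in orange left of vehicle libraries in blue, a point for each library and a line at the mean of 3 libraries. Tbx21 averages 54.7 FPKM with DMOG and 0.145 FPKM with vehicle, and Il18r1 is the only gene of the 7 that is lower with DMOG.

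Of the 7 genes, 5 rose and 1 fell with DMOG, against 60.8% of 9884 genes called, 27.7% higher and 33.2% lower. Tbx21, Ifng and Il12rb2 are among the 5 and passed the filter only through the DMOG libraries. Their adjusted p, this count and the median below therefore carry no weight against the all-gene values. Il12rb1, Stat4 and Il18r1 averaged above 1 FPKM with vehicle too. The differences were 5.60 ± 0.10 for Tbx21 (adjusted p = 5.94e-17), 5.24 ± 0.11 for Ifng (5.99e-16), 4.71 ± 0.18 for Il12rb2 (5.45e-13), 2.18 ± 0.17 for Il12rb1 (5.72e-09), 1.03 ± 0.12 for Stat4 (9.07e-07) and -2.65 ± 0.13 for Il18r1 (2.10e-11). The calls of Il12rb1, Stat4 and Il18r1 held without any single library. The median of the 6 tested genes was 3.44, against -0.03 over all genes. As ratios of means, Ifng was 384-fold, Tbx21 377-fold and Il12rb2 115-fold the vehicle level, and these ratios rest on mean vehicle levels of 0.299 FPKM or less. With no filter on low values, Eomes was higher by 0.47 ± 0.04 (adjusted p = 0.000350). The 4 natural killer cell markers in that table summed to between 1.94 and 2.23 FPKM with DMOG, against 0.445 to 0.697 FPKM with vehicle, and the 2 CD8 markers to between 6.86 and 10.8 FPKM, against 6.33 to 8.49 FPKM. The 4 dendritic cell markers summed to between 1.60 and 2.48 FPKM with DMOG, against 0.408 to 0.613 FPKM with vehicle, and the 5 B cell markers to between 0.843 and 1.2 FPKM, against 6.85 to 11.3 FPKM. Zbtb46 was the highest dendritic cell marker in both groups, at up to 2.32 FPKM with DMOG and 0.285 FPKM with vehicle. The 4 myeloid markers in the table summed to between 0.119 and 0.344 FPKM with DMOG, against 6.65 to 7.13 FPKM with vehicle. The T cell marker sums given above were lower with DMOG. The part of these cells in the DMOG differences was not tested.

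At 2 ng/ml TGF-b, the comparisons with no library in common were tKO minus WT and DMOG minus vehicle, in tables that were normalized separately. Tbx21, Ifng, Il12rb2 and Il12rb1 were higher in both. Ifng passed the filter only through the tKO and the DMOG libraries, and Tbx21 and Il12rb2 only through the DMOG libraries in experiment 2. The shared direction of these genes therefore carries no weight, which leaves Il12rb1. Stat4 had 0.41 ± 0.25 for tKO minus WT, which did not pass (adjusted p = 0.287), beside 1.03 for DMOG minus vehicle, and Il18r1 had -0.74 ± 0.33 (adjusted p = 0.154) beside -2.65. The difference between the experiments was not tested.

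**Figure D3:**
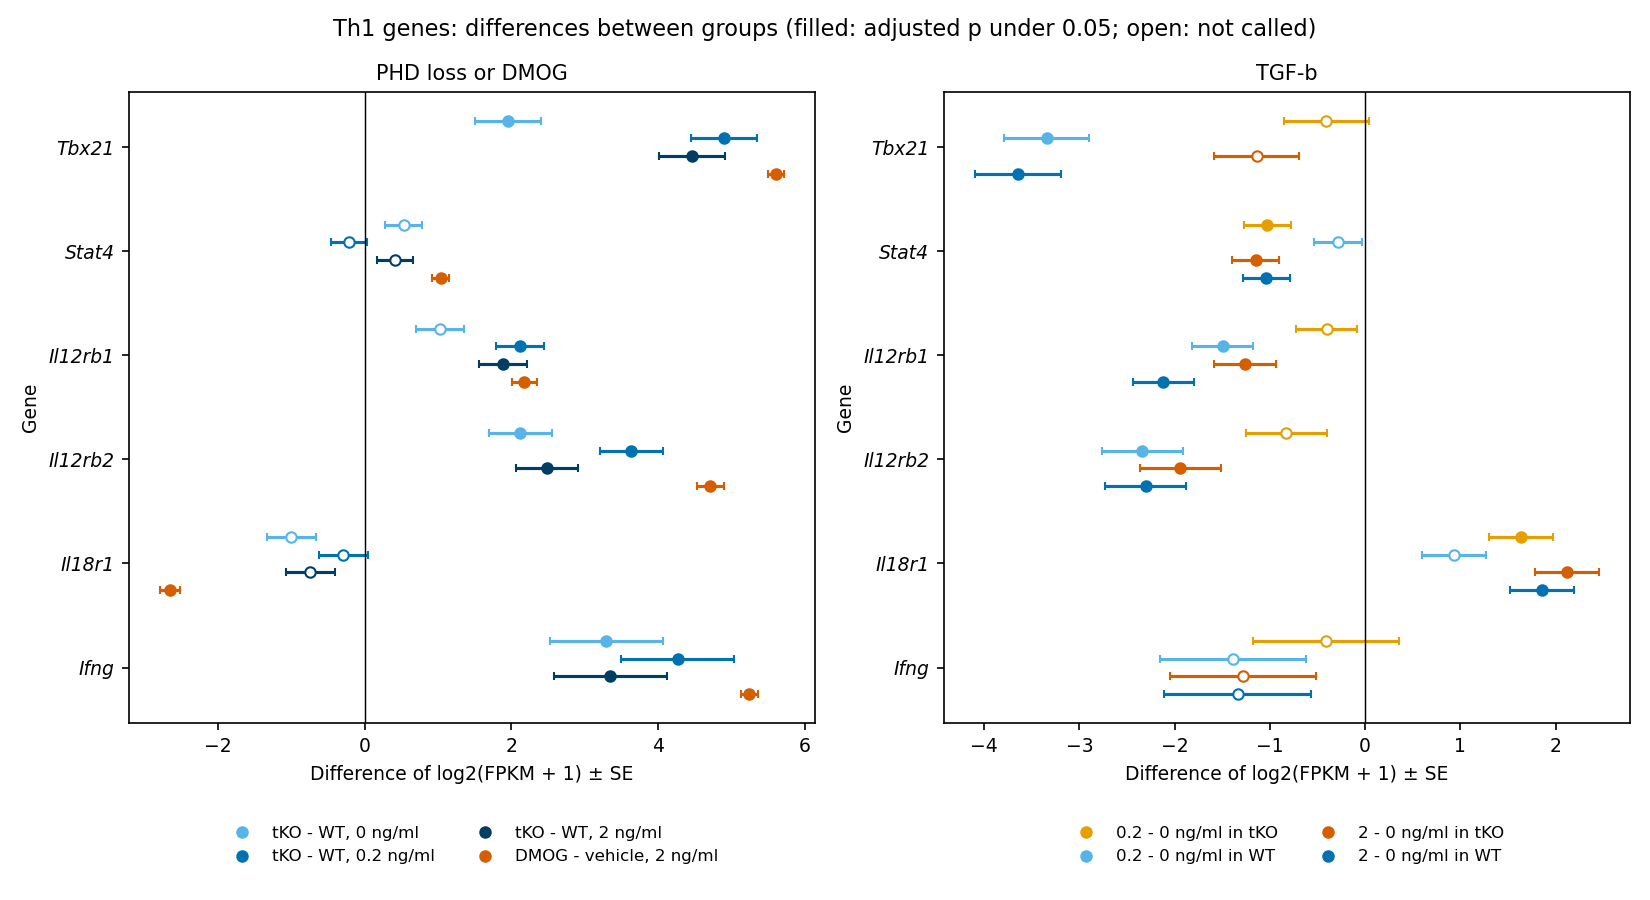
Differences of log2(FPKM + 1) ± SE for the 6 tested genes, on the left for tKO minus WT at each TGF-b dose and for DMOG minus vehicle, on the right for TGF-b in tKO and WT cells, with filled points where the adjusted p is under 0.05. Tbx21 has 1.96, 4.89 and 4.46 for tKO minus WT at 0, 0.2 and 2 ng/ml and 5.60 for DMOG, and Il18r1 is higher with TGF-b in both genotypes.

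Genes around the 7 were read in 4 lists of 66 genes, which were chosen with earlier results of these data known. Whether a list gene passed the filter on low values only through the tKO or DMOG libraries was not examined. The counts and medians of the lists are therefore a description, and carry no weight against the all-gene shares. List A holds partners of the interleukin-12 and interleukin-18 receptors and their signalling. Of its 15 tested genes, 6 were higher and 4 lower in tKO over the doses, with a median difference of 0.10, and the all-gene share called is the 27.2% given above. The largest rises were Gadd45b (2.14) and Gadd45g (1.39), stress proteins that sustain p38 signalling to Ifng in Th1 cells, and Jak2 (1.07), the kinase bound to the Il12rb2 chain. The largest falls were Il6st (-1.32), the gp130 chain of the interleukin-6 receptor, Il27ra (-0.96), which pairs with gp130 for interleukin-27, and Jak1 (-0.54). With DMOG, 6 were higher and 5 lower, with a median of -0.10, against 60.8% of all genes called, 27.7% higher and 33.2% lower. The rises were led by Gadd45b (1.66), Stat3 (1.35) and Jak2 (1.10), and the falls by Il6st (-1.86), Il27ra (-1.16) and Il18rap (-0.72), the partner chain of the interleukin-18 receptor. Il18rap had -0.28 ± 0.17 for tKO minus WT over the doses and did not pass (adjusted p = 0.249), an average over doses of unlike sign. Without TGF-b it averaged 0.802 ± 0.0839 FPKM in tKO and 3.76 ± 0.547 FPKM in WT (SD, n = 2 each), a difference of -1.40 ± 0.29 (adjusted p = 0.00690), and at 0.2 and 2 ng/ml the differences were 0.44 and 0.12 and did not pass.

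List B holds the interferon gamma receptor and response genes. Of its 19 tested genes, 13 were higher and 2 lower in tKO over the doses, with a median of 0.80, against 13.9% of all genes higher and 13.3% lower. The largest rises were Iigp1 (2.81), an interferon-induced GTPase, Irf8 (1.40), an interferon response factor, and Tap1 (1.26), a peptide transporter. The falls were Ifngr1 (-1.62), the ligand-binding chain of the receptor, and Gbp3 (-1.18), a guanylate-binding protein. Iigp1 averaged 94.9 ± 13.5 FPKM in tKO and 6.47 ± 5.49 FPKM in WT at 2 ng/ml (SD, n = 2 each), and Ifngr1 averaged 86.5 ± 9.64 FPKM in tKO and 159 ± 34.4 FPKM in WT. Without TGF-b, 0 genes of the list were higher and 2 lower in tKO, at 0.2 ng/ml 12 were higher and 1 lower, and at 2 ng/ml 11 were higher and 1 lower. Over all genes, 5.34% were higher and 4.30% lower without TGF-b, 9.11% and 6.38% at 0.2 ng/ml, and 7.82% and 8.16% at 2 ng/ml. Within WT, 6 fell at 0.2 ng/ml and 10 at 2 ng/ml against no TGF-b, while within tKO 0 fell at 0.2 and 3 at 2 ng/ml. Of all genes, 0.676% and 7.91% fell in WT and 0.782% and 10.4% in tKO at these doses. The genotype difference of the 2 minus 0 ng/ml effect was positive and passed for 5 of the 19, against 1.55% of all genes. With DMOG, 16 were higher and 1 lower, against 27.7% and 33.2% of all genes, with a median of 1.77, led by Iigp1 (4.80), Gbp2 (3.11) and Gbp5 (2.90), and the fall was Ifngr1 (-1.72).

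List C holds other factors and products of Th1 cells. Of its 11 tested genes, 8 were higher and 1 lower in tKO over the doses, against 13.9% and 13.3% of all genes, with a median of 1.59. The largest rises were Ccl3 (3.00), a chemokine, Bhlhe40 (2.54), a transcription factor that favours inflammatory cytokines over interleukin-10, and Fasl (2.36), a death ligand. Cxcr6 (-1.32), a chemokine receptor, was the fall. With DMOG, 10 of 12 were higher and 2 lower, against 27.7% and 33.2% of all genes, with a median of 1.91. The rises were led by Ccl3 (6.13), Ccl4 (3.66) and Il2 (3.49), and the falls were Cxcr6 (-3.28) and Cxcr3 (-2.19), the chemokine receptor that marks Th1 cells and is a known target of T-bet. Cxcr3 had 0.66 ± 0.27 for tKO minus WT and did not pass (adjusted p = 0.0910).

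List D holds regulators of the opposing helper fates. Of its 12 tested genes, 3 were higher and 4 lower in tKO over the doses, against 13.9% and 13.3% of all genes, with a median of 0.10. The rises were Gata3 (1.28), the defining factor of Th2 cells, Stat5a (1.04) and Rora (1.01), and the largest falls were Foxp3 (-1.98), the defining factor of regulatory T cells, Tcf7 (-1.65) and Zfpm1 (-0.61), a partner of GATA factors. With DMOG, 3 were higher and 8 lower, against 27.7% and 33.2% of all genes, with a median of -0.86. The rises were Stat5a (0.62), Rora (0.55) and Stat6 (0.46), and the falls included Foxp3 (-3.00) and Bcl6 (-2.88), the defining factor of follicular helper cells. Gata3 fell with DMOG by 0.41 ± 0.13 (adjusted p = 0.0129), where it was higher in tKO.

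**Figure D4:**
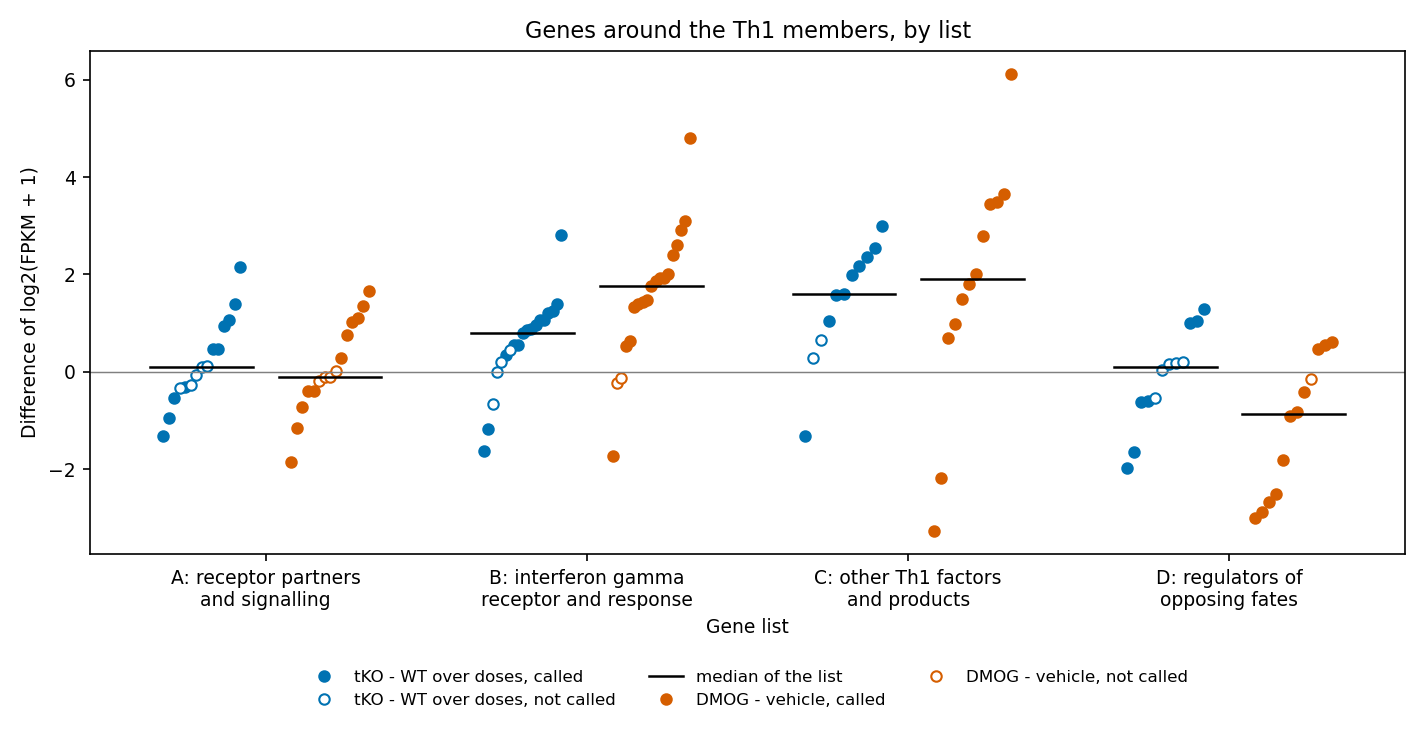
Differences of log2(FPKM + 1) for the tested genes of 4 lists, with tKO minus WT over doses in blue left of DMOG minus vehicle in orange, filled where the adjusted p is under 0.05, and a line at the median of each list. The medians of the interferon gamma response list are 0.80 for tKO minus WT and 1.77 for DMOG, and those of the signalling list are 0.10 and -0.10.

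Across the 12 libraries of experiment 1, log2(FPKM + 1) of Tbx21 followed that of Il12rb2 (Pearson r = 0.972), Il12rb1 (0.953) and Ifng (0.899). Stat4 and Il18r1 ran opposite to each other, with r = -0.913. These libraries share genotype and dose, so the values describe the layout of the groups and carry no test. Of all tested genes outside the set, those most like Tbx21 were the joint entry of Serpina3f and Serpina3g (r = 0.977), whose reads cannot be assigned to either, Rxra (0.974) and Alkbh5 (0.973). Those most like Ifng were Fosl2 (0.964), Ccl3 (0.964) and Klf6 (0.957). Serpina3f and Serpina3g ranged from 59.4 to 156 FPKM in tKO libraries, against 2.95 to 35.5 FPKM in WT libraries.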

How the data were processed

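Naive CD4+ T cell cultures of 18 libraries were compared in tables of FPKM that the authors deposited for each library, per the file headers. Per the labels' protocols, polyadenylated RNA went through a SMARTer kit for low input. Such libraries carry no strand information, and overlapping genes on opposite strands share reads. The submitters' processing notes list the mm9 build and, with no version or role, Cuffdiff, Cufflinks, TopHat and Trimmomatic.

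After 18 and 291 exact duplicates were dropped, entries of a symbol were summed. Genes averaging 1 FPKM or more were tested on log2(FPKM + 1) with limma 3.58.1 in R 4.3.3 (mean-variance trend, 1 coefficient per group), which was tested on simulated data. Tests were made only within a table, over 10354 and 9884 genes, with adjusted p from Benjamini-Hochberg. Depth is unknown. The 7 genes were named in every comparison, and up to 3 called rises and 3 falls of each list over the doses and with DMOG, except 1 gene that is not reported here. The members and lists were chosen with earlier results of these data known. Alternatives were a pseudocount of 0.1 FPKM, no filter, quantile normalization, a replicate block, labelled series as a random factor or averaged, and each library left out in turn. Leaving out a labelled series at every dose was chosen after seeing the data.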

Additional observations from a re-analysis of the deposited data

Results flagged for a closer look

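By its library values, Eomes moved in opposite directions with TGF-b in the genotypes, and its rise in tKO did not pass a test. At 2 ng/ml both tKO libraries lay above both tKO libraries without TGF-b (0.402 and 0.985 FPKM, against 0.240 FPKM and a listing at 0), while both WT libraries lay below both WT libraries without TGF-b (0.277 and 0.0178 FPKM, against 2.86 and 1.61 FPKM). The difference of the 2 effects was 2.06 on the log2(FPKM + 1) scale. Eomes was below the filter on low values, so the difference was not tested among the genes that passed it. With no filter, over 15833 genes, the SE was 0.48 and the adjusted p was 0.101. In that limma fit, 2 minus 0 ng/ml was 0.58 ± 0.34 in tKO (adjusted p = 0.351) and -1.48 ± 0.34 in WT (0.0382).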

How the results depend on the processing

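Counts below are genes called, with the Th1 genes called in brackets. The Th1 calls other than Ifng, over the doses and at 0.2 ng/ml, held under every alternative that keeps all libraries. The exception was Il18r1 over the doses with no filter. Ifng is left out here because it passed the filter only through the tKO libraries. Averaging the 3 doses of a labelled series left 1840 genes over the doses, against 2817. With no filter on low values, the Th1 calls were 1 without TGF-b, against 3, of which none was kept, since the 1 was Eomes, and 0 for 0.2 minus 0 ng/ml in WT (72 genes, against 165 and 3), 0 for 0.2 minus 0 ng/ml in tKO, against 2, and 2 for 2 minus 0 ng/ml in tKO, against 4. Also with no filter, 366 genes were called for 2 minus 0.2 ng/ml in tKO, against 991, and 157 for the genotype difference of the TGF-b effect, against 308. A pseudocount of 0.1 FPKM or quantile normalization left 1 Th1 call for 0.2 minus 0 ng/ml in tKO and gave 1 for the genotype difference, against 0, which was Tbx21. For 2 minus 0.2 ng/ml in WT, quantile normalization gave 83 genes and the random series 122, against 45, and the random series (consensus correlation 0.126) gave 252 for 0.2 minus 0 ng/ml in WT and 528 (1) for the genotype difference. The replicate block gave 73 for 2 minus 0.2 ng/ml in WT and 512 (1, Tbx21, adjusted p = 0.0115) for the genotype difference, and Il12rb1 without TGF-b (0.0320) and Tbx21 for 2 minus 0 ng/ml in tKO (0.0278) also passed. Replicate numbers were not taken as pairs: between genotypes, deviations of the same number had correlations of -0.106 to 0.255, between DMOG and vehicle of -0.194 to 0.443, and between doses of a genotype of 0.057 to 0.416.

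A library or a labelled series at every dose was left out in turn, where a lone library is assumed to vary like the other groups. The counts ranged over 1303 to 3209 (4 to 5) for tKO minus WT over the doses, 298 to 1235 (0 to 4) without TGF-b, 475 to 2667 (3 to 4) at 0.2 ng/ml and 387 to 2160 (2 to 4) at 2 ng/ml. In WT they ranged over 7 to 237 (0 to 3) for 0.2 minus 0 ng/ml, 158 to 2091 (1 to 6) for 2 minus 0 and 0 to 113 (0) for 2 minus 0.2. In tKO they ranged over 46 to 708 (0 to 2), 360 to 2388 (1 to 5) and 6 to 2375 (0 to 1) for the same steps. The genotype difference ranged over 9 to 719 (0 to 1), and DMOG over 5282 to 6295 (6). The causes were not tested. With 2 libraries in most groups and no read depth, small differences were not detectable.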
